A study of Homo sapiens with 12 samples.

Results

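The RNA recovered with biotin-tagged miR-4307-3p was compared with the RNA of its input in HEK293T cells, a widely used line from human embryonic kidney into which the large T antigen of SV40 was introduced. Of the 12 Illumina bead arrays of the study, 6 belong to this comparison by their titles and treatment labels, 3 of the pull-down and 3 of the input. All cells behind these 6 arrays had received 200 pmol of the synthetic miR-4307-3p duplex, so the inputs are transfected too and hold no cells without the microRNA. Cells were collected after 24 hours, and streptavidin, a protein that binds biotin, was used on magnetic beads to isolate the microRNA with its bound RNA. The inputs had no pull-down step. The other 6 arrays repeat the design, in 3 pull-downs and 3 inputs, with 200 pmol of miR-3118-3p harvested at the same 24 hours. They serve to show where miR-4307-3p differed. They also enter the shared estimate of the spread, and so affect every standard error, p-value and call of the main fit. No untagged duplex and no scrambled duplex is among the 12 arrays. The labels do not say whether replicates are separate cultures; p-values therefore reflect the spread among these samples alone, and that spread may be technical.

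A microRNA is loaded into an Argonaute protein and guides it to messenger RNAs, mostly by pairing of its seed, bases 2 to 8 from the 5′ end, with sites that are often in 3′ untranslated regions. Bound messages are usually repressed or degraded. A biotin tag on the microRNA allows the bound messages to be fished out, and the input shows how abundant each message was before that step. Biotin is also the natural cofactor of a few carboxylases, and it was used a further time here to label the amplified RNA of every array.

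The mature sequences of both microRNAs are shown because the comparison turns on their different seeds, given in capitals.
miR-4307-3p: aAUGUUUUuuccuguuucc
miR-3118-3p: uGUGACUGcauuaugaaaauucu
They are the RefSeq entries hsa-miR-4307 and hsa-miR-3118, each the only mature product listed and each on the 3′ side of its hairpin, on build GRCh38.p14. The mature miR-4307 lies at chr14:26908697-26908715 on the plus strand, is 19 bases long, and has 11 U, of which 6 stand in 1 unbroken run that begins inside the seed. Its seed AUGUUUU pairs with AAAACAU in a target. The miR-3118 entry is 23 bases long, comes from 4 loci, and has the seed GUGACUG, which pairs with CAGUCAC. The miR-4307 hairpin of 84 bases is shown with the mature part, its bases 56 to 74, in capitals.
miR-4307 hairpin: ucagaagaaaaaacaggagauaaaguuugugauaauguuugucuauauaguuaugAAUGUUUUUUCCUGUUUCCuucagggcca

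The deposited values are on a log2 scale, and all differences below are pull-down minus input on that scale, given ± the standard error (SE) of the fit with n = 3 arrays per group. Array medians lay between 7.53 and 7.59 in all 12 arrays, so each difference is measured against the rest of the RNA and says nothing of how much RNA was recovered. Arrays of the same miR-4307-3p group correlated with each other at 0.988 to 0.993 across probes in the pull-down and 0.990 to 0.993 in the input, against 0.963 to 0.983 in the miR-3118-3p pull-down. The median SD of a gene between replicates was 0.134 in the miR-4307-3p pull-down and 0.128 in its input, and 0.230 in the miR-3118-3p pull-down. The arrays measured 9581 named genes. As a check of reference genes, ACTB (beta-actin) did not pass the test at its brightest probe. That probe read 12.30, 12.69 and 12.73 in the pull-downs and 12.56, 12.46 and 12.64 in the inputs. Its further probes gave differences of 0.02 and -0.80, so the gene was not flat at every probe. GAPDH, a glycolytic enzyme, read 11.99, 12.06 and 12.22 against 12.45, 12.55 and 12.35, a difference of -0.36 ± 0.14 that did not pass either (adjusted p = 0.10).

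Few messages rose far, and almost none fell far. At an adjusted p under 0.05, 770 genes were higher in the miR-4307-3p pull-down, 8.04% of those tested, and 585 were lower, 6.11%. A rise of at least 1 was found for 211 genes (2.2%) and a fall of at least 1 for 6 genes (0.0626%). At least 2 was passed by 15 genes, all of them higher. The median over all genes was -0.02, and the lowest and highest percent of genes began at -0.72 and 1.36. Each of the 770 was higher, and each of the 585 lower, in all 3 same-numbered pairs of arrays, which 59.4% of all genes also were in 1 direction or the other. Pull-down and input arrays did not overlap for 769 of the 770 and 580 of the 585, against 39.1% of all genes.

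The count of lower genes depended on single arrays far more than the count of higher genes. It was 318, 275 and 331 without input replicates 1, 2 and 3, 290 and 234 without pull-down replicates 2 and 3, and 964 without the first miR-3118-3p pull-down array, which enters the estimate of the spread. The count of higher genes lay between 519 and 1051 in the same exercise. With the replicate number as a block within each microRNA, 1065 genes were higher and 922 lower, and these held all 770 and all 585 of the genes above. The 2 inputs, of miR-4307-3p and of miR-3118-3p cells, differed in 0 genes by the same limma test, with 160 genes at an unadjusted p under 0.05. That is below the share of 0.05 awaited when no gene differs. The test shares its estimate of the spread with the pull-downs, and its 0 calls do not show that the inputs were alike.

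**Figure D1:**
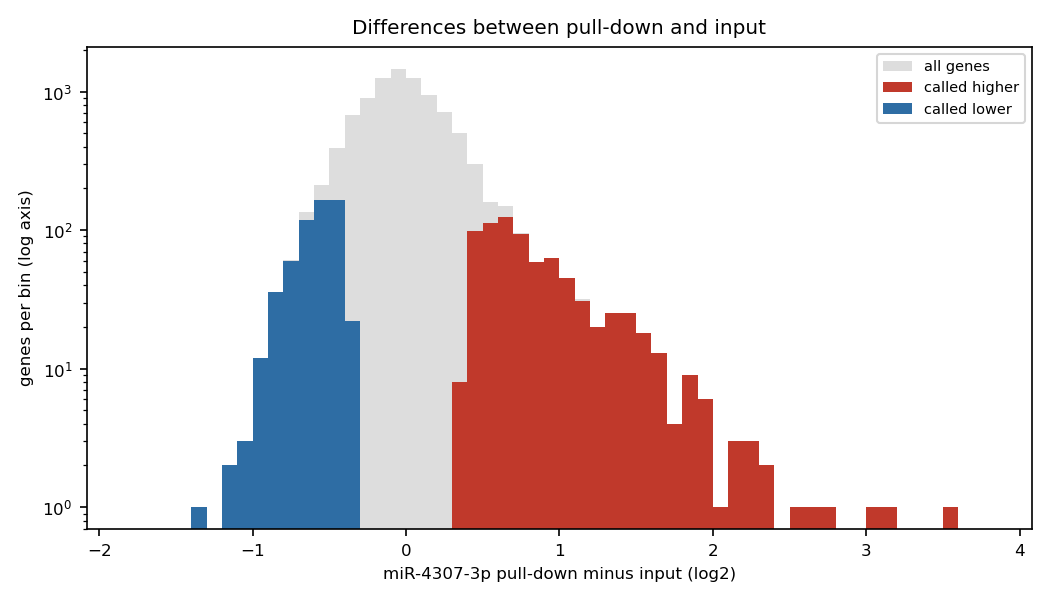
Histogram of pull-down minus input (log2, horizontal axis) for the 9581 genes, with the number of genes per bin on a log axis. Grey bars are all genes, red those called higher and blue those called lower; the right tail reaches 3.54 and the left tail -1.35.

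The 30 largest rises ran from 1.81 to 3.54 and went to genes whose input means spanned 6.90 to 11.41, so they included messages dim and bright in the input. All 30 stayed called under all 22 alternative settings run. Pull-down replicate 1 gave the lowest of the 3 pull-down values for 26 of the 30, and its median paired difference was 1.91, against 2.22 and 2.13 in the pairs numbered 2 and 3. Among all genes, replicate 1 was the lowest pull-down for 35.3%. The rise in these genes was smaller in the first pair.

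**Figure D2:**
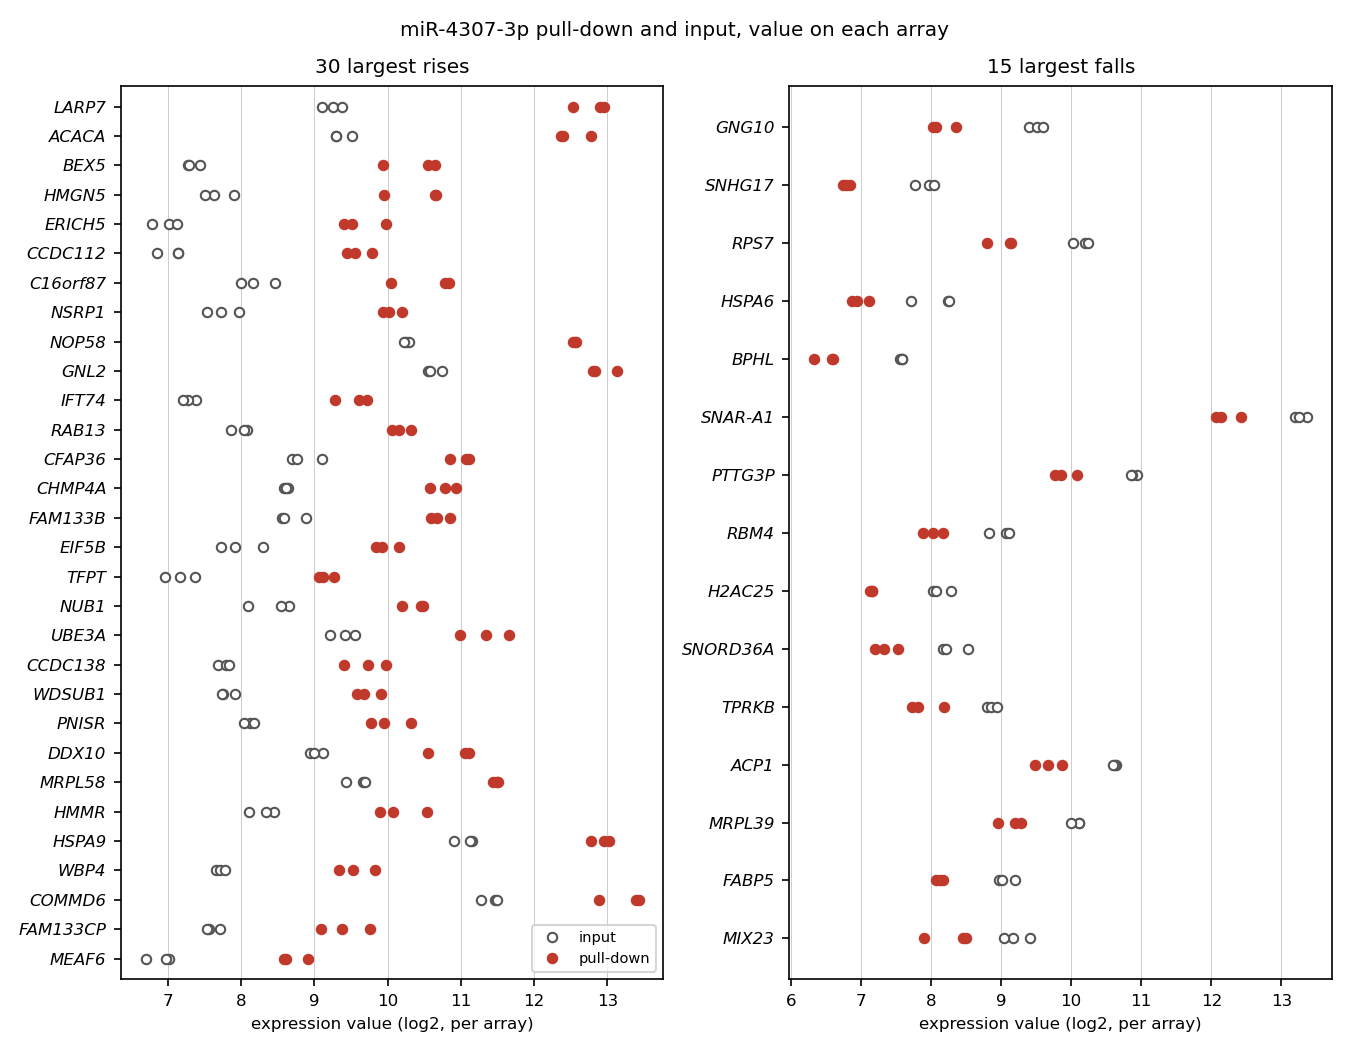
Values on each of the 6 arrays (log2, horizontal axis) for the 30 largest rises on the left and the 15 largest falls on the right, 1 gene per line. Filled red points are pull-downs and open points are inputs, 3 of each; genes with overlapping groups were not eligible, and the gaps on the left are wider than those on the right.

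The leading gene was LARP7, whose protein binds and stabilises the 7SK RNA that holds back transcription elongation. It read 12.53, 12.95 and 12.89 in the pull-downs and 9.26, 9.37 and 9.11 in the inputs. The difference was 3.54 ± 0.16 (adjusted p = 2.3e-09), and a further LARP7 probe gave 3.82. With miR-3118-3p the same gene was not enriched, at -0.21 ± 0.16, and the difference between the microRNAs was 3.76 ± 0.22 (adjusted p = 1.7e-07). In the list of La-related proteins and 7SK complex genes it stood alone. Of 17 measured members 2 were higher (11.8%, against 8.04% of all genes) and 0 lower, with a median of 0.12. SSB (La itself, which binds the ends of new polymerase III transcripts) was the other higher gene, at 0.60 ± 0.16. The SSB call was lost without input replicate 1, input replicate 3 or pull-down replicate 2. CCNT1 and CDK9, the cyclin and kinase that 7SK holds back, read 0.47 ± 0.16 (adjusted p = 0.054, and 0.011 with the replicate block) and -0.06 ± 0.17. LARP4, LARP4B, LARP6 and LARP1B lay between 0.03 and 0.34 and did not pass.

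Genes of ribosome assembly in the nucleolus rose more often than genes at large. Of 98 measured, 24 were higher, 24.5% against the 8.04% of all genes, and 4 lower, and the list median was 0.09. NOP58, a core protein of the box C/D particles that methylate ribosomal RNA, read 12.57, 12.53 and 12.56 in the pull-downs and 10.25, 10.29 and 10.22 in the inputs. Replicates almost coincided, and the difference was 2.30 ± 0.20 (adjusted p = 1.5e-06). GNL2, a nucleolar GTPase of large subunit assembly, gave 12.81, 12.83 and 13.12 against 10.75, 10.55 and 10.57, also 2.30 (± 0.18). DDX10, a DEAD-box helicase of ribosome assembly, gave 10.55, 11.12 and 11.06 against 8.95, 9.12 and 8.99, a rise of 1.89 ± 0.18. The DDX52 helicase rose by 1.06 ± 0.21, but its other probe gave only 0.31. The largest falls of the list were those of NOP16 (-0.64 ± 0.20) and BOP1 (-0.58 ± 0.17), neither of which kept its call in every setting. No member was called lower without input replicates 1 or 2 or without pull-down replicates 2 or 3, and 8 were with the replicate block. With miR-3118-3p, 9 of the 98 were higher and 15 lower, against 12.7% and 10.9% of all genes. The difference between the microRNAs passed its own test upward for 14 and downward for 2, against 4.73% and 2.86% of all genes.

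Splicing genes rose in number without a shift of the list as a whole. Among 73 core spliceosome genes 19 were higher, 26.0%, and 4 lower, yet the median was -0.03. The most changed were CDC40, a splicing factor of the catalytic steps (1.31 ± 0.21), and PRPF38B, a relative of the tri-snRNP factor PRPF38A (1.30 ± 0.14), with pull-down values of 8.41, 8.55 and 8.26 against 7.18, 7.14 and 6.98 for PRPF38B. At the other end SF3B6, a small subunit of the branch-point-binding SF3B complex, fell from 11.40, 11.55 and 11.56 in the inputs to 10.65, 10.78 and 10.39 (-0.90 ± 0.18; adjusted p = 0.0029). SNRPC, a U1 protein, fell by 0.56 on the log2 scale, and that call was lost without input replicate 1, input replicate 3 or pull-down replicate 3. The count lower was between 1 and 10 as single arrays were left out, lowest without input replicate 1 or pull-down replicate 3 and highest without the first miR-3118-3p pull-down array; it was 7 with the replicate block. The difference test went upward for 15 of the 73 and downward for 1, against 4.73% and 2.86% of all genes.

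In the neighbouring list of SR, hnRNP and RBM regulators 16 of 90 were higher (17.8%) and 7 lower. NSRP1, a splicing regulator of nuclear speckles, read 9.94, 10.01 and 10.19 in the pull-downs and 7.73, 7.97 and 7.53 in the inputs, a rise of 2.30 ± 0.13 (adjusted p = 2.1e-08). SREK1, an SR-related regulator, rose by 1.65 ± 0.19, and its further probe gave 1.62. RBM4, an RNA-binding regulator of splice sites, went the other way, from 9.07, 9.12 and 8.82 to 8.03, 8.18 and 7.88 (-0.97 ± 0.18; adjusted p = 0.0018), and RBM3, induced by cold, fell by 0.91 on the log2 scale. The RBM3 call was lost without input replicate 2 or pull-down replicate 3. The 7 lower members became 2 without input replicate 2 or 3, 12 without the first miR-3118-3p pull-down array, and 14 with the replicate block. Outside the lists, PNISR, a serine- and arginine-rich partner of pinin, rose by 1.90 ± 0.17, and WBP4, a spliceosome-associated WW-domain protein, by 1.85 ± 0.16. FAM133B rose by 2.02 ± 0.13 and its near-identical copy FAM133CP by 1.81 ± 0.20; probes of such copies can pick up each other's RNA, so these are not separate observations. DEAD and DEAH box helicases had 9 of 46 higher (19.6%) and 1 lower (2.17%), against 8.04% and 6.11% of all genes. Only 4 were higher without pull-down replicate 2 or without input replicate 3.

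Chromatin genes among the leading rises included HMGN5, a nucleosome-binding protein of the high mobility group. It read 9.94, 10.65 and 10.66 in the pull-downs and 7.63, 7.90 and 7.51 in the inputs, a rise of 2.73 ± 0.23 (adjusted p = 1.1e-06). HMGB2, a DNA-bending member of the group, gave 12.79, 12.96 and 12.98 against 11.03, 11.38 and 11.55, a rise of 1.59 ± 0.17, with 2.01 at its further probe. Both were far from the rest of the family. Of 14 measured high mobility group genes 3 were higher (21.4%) and 0 lower, against 8.04% and 6.11% of all genes. The weakest of the 3 was UBTF, the HMG-box factor of RNA polymerase I (0.42 ± 0.13). The UBTF call was lost on leaving out any of the 6 miR-4307-3p arrays. HMGN1, HMGN2, HMGN3, HMGB1, HMGB3, HMGA1, HMG20B, HMGXB3 and TOX4 lay between 0.09 and 0.32, SSRP1 at -0.15 and HMGN4 at -0.34, and none passed. MEAF6, of the NuA4 acetyltransferase complex, rose by 1.81 ± 0.16, and TFPT, of the INO80 remodelling complex, by 1.99 ± 0.15.

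The small BEX and TCEAL family, transcription elongation factor A-like genes and their brain-expressed X-linked relatives, split between strong rises and no call. BEX5 read 9.93, 10.56 and 10.65 in the pull-downs and 7.27, 7.28 and 7.44 in the inputs, a rise of 3.05 ± 0.17 (adjusted p = 2.1e-08). TCEAL4 gave 13.17, 13.50 and 13.31 against 11.71, 11.90 and 11.66, a rise of 1.57 ± 0.13. TCEAL3 gave 10.53, 10.77 and 10.79 against 9.09, 9.21 and 9.33, a rise of 1.49 ± 0.13. In these genes every pull-down was above every input by more than 1. BEX2 rose by 0.52 ± 0.13, a call lost without input replicate 2. The other 6 of the 10 measured members lay between -0.28 (BEX4) and 0.27 (TCEAL8) and did not pass. The 4 higher genes were 40% of the 10, against 8.04% of all genes. Enrichment was greater with miR-4307-3p than with miR-3118-3p for BEX5 (by 3.46 ± 0.24), TCEAL4 and TCEAL3 (by 1.87 each). It was less for BEX4, by -0.74 ± 0.19 (adjusted p = 0.024).

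**Figure D3:**
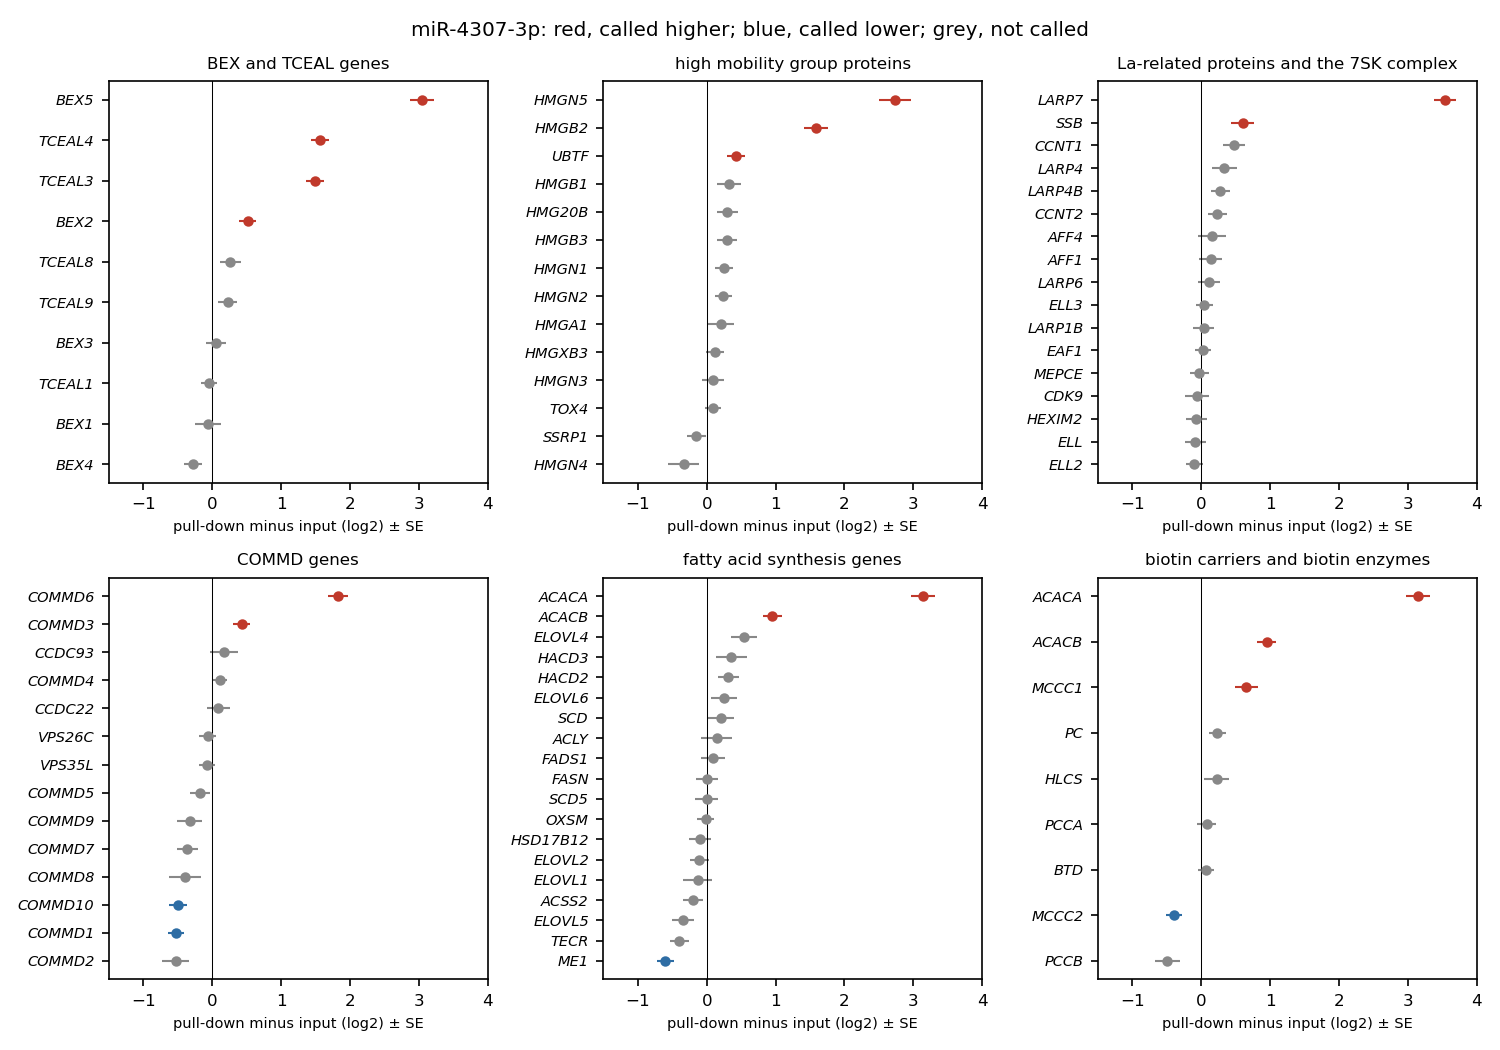
Pull-down minus input with miR-4307-3p (log2, horizontal axis) for every measured member of 6 small lists, points with ± SE bars from the fit over 3 arrays per group. Red points were called higher, blue lower and grey neither; in each panel 1 to 3 members stand well to the right of the others.

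Genes for the centrosome, for coiled-coil proteins and for motors formed another group with many rises. Of 58 centrosome and centriole genes 16 were higher (27.6%) and 1 lower, and their median of 0.26 was the highest among the lists with over 20 measured genes. CEP95 rose by 1.58 ± 0.16, from 7.79, 7.96 and 8.10 to 9.35, 9.72 and 9.51. CEP70, which binds gamma-tubulin, gave 7.91, 8.23 and 8.33 against 6.65, 6.63 and 6.77, a rise of 1.47 ± 0.18. OFD1, a protein of centriolar satellites and the ciliary base, rose by 1.13 ± 0.14. HAUS1, a subunit of the augmin complex that branches spindle microtubules, was the member that fell, to 7.09, 7.44 and 6.93 from 7.94, 8.05 and 7.99 (-0.84 ± 0.14; adjusted p = 9.3e-04). Its value with miR-3118-3p was similar (-0.96). The difference test went upward for 12 of the 58 and downward for 2, against 4.73% and 2.86% of all genes.

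Of 55 genes named for coiled-coil domains (CCDC), 17 were higher (30.9%) and 1 lower. CCDC112 read 9.45, 9.79 and 9.55 in the pull-downs and 6.85, 7.14 and 7.14 in the inputs, a rise of 2.55 ± 0.15 (adjusted p = 3.3e-08). CFAP36, a cilium-associated protein listed by its older CCDC name, gave 10.85, 11.07 and 11.12 against 8.69, 8.76 and 9.10, a rise of 2.16 ± 0.13. CCDC138 rose by 1.93 ± 0.17. In all 3 the choice of genes ensured that the groups do not overlap. The member that fell was MIX23, a mitochondrial protein also listed by an older name, with 8.50, 7.90 and 8.46 against 9.18, 9.05 and 9.42 (-0.93 ± 0.18). For this list the difference test went upward for 15 and downward for 1, against 4.73% and 2.86% of all genes. With miR-3118-3p itself 7 were higher and 13 lower, against 12.7% and 10.9% of all genes.

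Among intraflagellar transport and ciliary genes 7 of 48 were higher (14.6%) and 2 lower (4.17%), with a median of 0.01. The shares among all genes, for this list and the next ones, were 8.04% and 6.11%. IFT74, a core coiled-coil subunit of the IFT-B complex, stood out with 9.29, 9.72 and 9.61 against 7.39, 7.27 and 7.20, a rise of 2.25 ± 0.15 (adjusted p = 1.1e-07). The 2 that were lower were B9D1 of the transition zone (-0.56 ± 0.15) and IFT25 (-0.46 ± 0.14). The B9D1 call was lost without any 1 of the 6 miR-4307-3p arrays. The IFT25 call was lost in 8 of the 22 settings, among them leaving out any of these arrays but pull-down replicate 3. Kinesins, dyneins and myosins had 13 of 54 higher (24.1%) and 2 lower (3.70%). Only 8 were higher without pull-down replicate 2, pull-down replicate 3 or input replicate 3, and 4 were lower with the replicate block. CENPE, the kinetochore kinesin, rose by 1.60 ± 0.20, and KIF20B, a kinesin of cytokinesis, from 9.13, 9.04 and 8.99 to 10.44, 10.59 and 10.56 (1.47 ± 0.17). Kinetochore and spindle genes gave 7 of 58 higher (12.1%) and 5 lower (8.62%). The lower count was 3 without pull-down replicate 2, pull-down replicate 3 or input replicate 3 and 9 with the replicate block. NDC80, which attaches microtubules to kinetochores, rose by 1.31 ± 0.20, while MAD2L1, of the spindle checkpoint, fell by 0.82 and KNSTRN by 0.68 on the log2 scale. HMMR, a spindle-associated coiled-coil protein outside the lists, rose by 1.87 ± 0.24, with 2.00 at its further probe. Cohesin, condensin and SMC genes gave 5 of 26 higher (19.2%) and 1 lower (3.85%). The higher count was 2 without pull-down replicate 2 or 3, 3 without input replicate 1, and 8 with the replicate block. SMC3, a ring subunit of cohesin, rose by 1.21 ± 0.21.

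**Figure D4:**
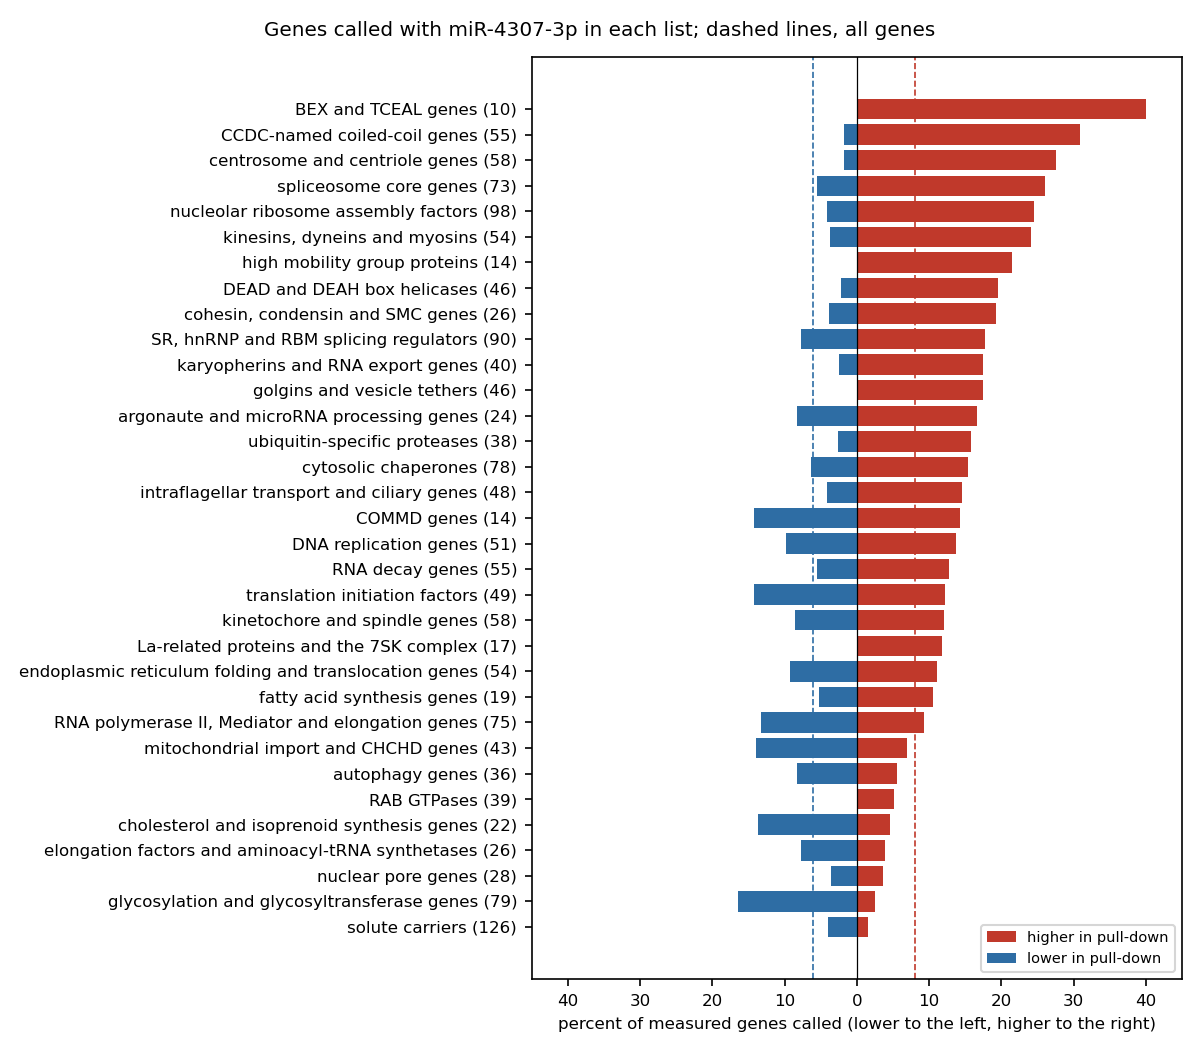
Percent of the measured genes of each list called higher (red, to the right) or lower (blue, to the left) in the miR-4307-3p pull-down, for the 33 lists with at least 10 measured genes; the number measured stands in brackets and dashed lines mark the shares among all genes, 8.04% and 6.11%. Most lists lie above the red line, among them those of nuclear RNA processing, coiled-coil and centrosome genes, chaperones and golgins. Solute carriers, glycosylation genes, RAB GTPases, nuclear pore genes and autophagy genes are among those below it. The lists were chosen with earlier results of these data known.

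Solute carriers, the membrane transporters, rose rarely. Of 126 solute carriers 2 were higher (1.59%) and 5 lower, and the highest value in the list was 0.51. The 2 higher members were SLC38A1 (0.45 ± 0.12) and SLC39A7 (0.40 ± 0.12), and of the lower ones SLC35F5 read -0.54 ± 0.15 and SLC25A5 -0.50 ± 0.13. Numbers this small moved with the arrays used. None was higher without input replicate 1, input replicate 2, pull-down replicate 2 or pull-down replicate 3, while 10 were without the first miR-3118-3p pull-down array and 10 with the replicate block. With miR-3118-3p, 29 of the same 126 were higher and 9 lower, against 12.7% and 10.9% of all genes. The difference test was passed downward by 3 of the 126 and upward by 0, against 2.86% and 4.73% of all genes. The downward count was thus close to the share of all genes.

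Of 79 glycosylation genes 13 were lower (16.5%, against 6.11% of all genes) and 2 higher. DPAGT1, the first enzyme of N-glycan precursor synthesis, fell by 0.73 on the log2 scale at its brightest probe, but its other probe gave -0.11. OSTC, of the oligosaccharyltransferase, read 10.42, 10.43 and 10.16 against 10.82, 11.03 and 11.26 (-0.70 ± 0.17). DPM1, a subunit of dolichol-phosphate mannose synthase, rose by 0.93 ± 0.16, and MGAT5, a branching transferase, by 0.43 ± 0.13. The MGAT5 call was lost without any 1 of the 6 miR-4307-3p arrays, which left 1 higher gene each time, and the OSTC call without pull-down replicate 3 or input replicate 3. The 13 became 8 without pull-down replicate 1, 7 without input replicate 1, input replicate 2 or pull-down replicate 2, and 4 without pull-down replicate 3, and 6 genes were higher with the replicate block. Golgins and vesicle tethers had 8 of 46 higher (17.4%) and 0 lower. GOLGA4, a long coiled-coil golgin, rose by 1.65 ± 0.16, from 6.47, 6.40 and 6.28 to 7.69, 8.08 and 8.35. RUFY3, an adaptor of vesicle transport, rose by 1.26 ± 0.14 at its brightest probe, while its other probe gave 0.08.

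RAB GTPases showed 1 strong rise. RAB13, which works in traffic to cell junctions, read 10.16, 10.32 and 10.06 in the pull-downs and 7.87, 8.09 and 8.04 in the inputs, a rise of 2.18 ± 0.16 (adjusted p = 4.0e-07). RAB9B rose by 0.98 ± 0.14, and the other 37 of 39 measured RAB genes did not pass. The 2 higher genes were 5.13% of the 39, below the 8.04% of all genes. COMMD6, a small member of the copper metabolism domain family, read 12.89, 13.39 and 13.43 against 11.28, 11.46 and 11.49, a rise of 1.82 ± 0.14 (adjusted p = 6.2e-07). Within that family of 14 genes, COMMD3 was also higher, at 0.43 ± 0.13, and COMMD1 (-0.53 ± 0.12) and COMMD10 (-0.50 ± 0.13) were lower. Only the calls of COMMD6 and COMMD1 held in every setting; the COMMD3 call was lost on leaving out any of the 6 miR-4307-3p arrays. CHMP4A, a subunit of the ESCRT-III complex that cuts membrane necks, rose by 2.15 ± 0.14, with 10.57, 10.93 and 10.79 against 8.65, 8.59 and 8.61.

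Biotin-dependent carboxylases carry the cofactor that streptavidin binds, and they were listed with earlier results of these data known. The arrays measured their messages and not the proteins. Whether biotin has any part in the values below was not tested. ACACA, acetyl-CoA carboxylase, which carries biotin and makes the malonyl-CoA for fatty acid synthesis, read 12.37, 12.78 and 12.39 in the pull-downs and 9.30, 9.51 and 9.30 in the inputs. The rise was 3.14 ± 0.17 (adjusted p = 2.1e-08), and a further probe gave 3.27. It was as large with miR-3118-3p, at 3.31, and the difference between the microRNAs was -0.16 ± 0.24 (adjusted p = 0.80). ACACB, the mitochondrial form of the enzyme, gave 7.76, 7.90 and 8.10 against 7.02, 6.96 and 6.93, a rise of 0.95 ± 0.14, again close to the 0.98 with miR-3118-3p. Of 9 measured biotin genes 3 were higher (33.3%) and 1 lower (11.1%), against 8.04% and 6.11% of all genes. The 7 beside ACACA and ACACB were mixed. MCCC1, a biotin-carrying subunit, was higher (0.65 ± 0.16), its partner MCCC2 was lower (-0.40 ± 0.12), and neither call held in every setting. PC (0.24), HLCS (0.22), PCCA (0.08), BTD (0.07) and PCCB (-0.50 ± 0.18; adjusted p = 0.083) did not pass, though PCCB did with the replicate block (adjusted p = 0.011). In the fatty acid synthesis list of 19 genes ACACA and ACACB were the 2 that rose (10.5%). ME1, malic enzyme, was the 1 that fell (-0.60 ± 0.13, 5.26% of the list), and FASN, fatty acid synthase, read 0.00 ± 0.16. With the replicate block ELOVL4, an elongase (0.54; adjusted p = 0.012), was higher too and TECR, a reductase of chain elongation (-0.40; adjusted p = 0.039), lower. Without the first miR-3118-3p pull-down array 4 of the 19 were higher, and without input replicate 3 of miR-4307-3p 2 were lower.

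Other leading rises belonged to protein turnover, translation and mitochondria. UBE3A, a ubiquitin ligase, read 10.99, 11.34 and 11.66 against 9.21, 9.42 and 9.55, a rise of 1.94 ± 0.18, with 1.81 at a further probe. It also rose with miR-3118-3p, by 0.71, and the difference of 1.22 ± 0.26 passed (adjusted p = 0.0071). NUB1, which lowers the level of the ubiquitin-like NEDD8, rose by 1.95 ± 0.16, and WDSUB1, a U-box protein, by 1.92 ± 0.18. EIF5B, the GTPase that joins the ribosomal subunits, read 9.84, 10.15 and 9.92 against 8.29, 7.91 and 7.73 (1.99 ± 0.17). HSPA9, the mitochondrial HSP70, gave 12.77, 13.03 and 12.95 against 11.15, 11.12 and 10.90 (1.86 ± 0.16), and MRPL58, a peptidyl-tRNA hydrolase of the mitochondrial ribosome, 11.44, 11.49 and 11.51 against 9.67, 9.43 and 9.70 (1.88 ± 0.12). For ERICH5 and C16orf87 no role is given here; ERICH5 read 9.40, 9.52 and 9.97 against 7.01, 6.79 and 7.13 (2.65 ± 0.15), and C16orf87 10.04, 10.84 and 10.79 against an input mean of 8.21 ± 0.23 (SD, n = 3), a rise of 2.35 ± 0.21.

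The lists around these genes were mixed. Chaperones and co-chaperones had 12 of 78 higher (15.4%) and 5 lower (6.41%), against 8.04% and 6.11% of all genes. Besides HSPA9, which works in mitochondria although the list is named for cytosolic chaperones, DNAJC8 rose by 1.14 ± 0.15, while HSPA6, a stress-inducible HSP70, fell from 8.24, 8.26 and 7.71 to 6.95, 7.12 and 6.88 (-1.09 ± 0.23; adjusted p = 0.0045), and PFDN5, of prefoldin, fell by 0.47 on the log2 scale, a call lost in 6 of the 22 settings. The 5 lower became 2 without pull-down replicate 2 or input replicate 2 and 10 with the replicate block. Translation initiation factors gave 6 of 49 higher and 7 lower. After EIF5B the next rise was EIF4E2, a cap-binding homologue (1.18 ± 0.16), and the largest falls were EIF2B2, of the exchange factor for eIF2 (-0.84 ± 0.16), and MCTS1, a reinitiation factor (-0.74 ± 0.17). The 7 became 3 when input replicate 1, 2 or 3 or pull-down replicate 2 or 3 was left out. Ubiquitin-specific proteases gave 6 of 38 higher (15.8%) and 1 lower (2.63%), with 3 lower under the replicate block. The rises were led by USP33 (1.23 ± 0.15) and USP8 (1.17 ± 0.12).

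Argonaute and microRNA processing genes, whose proteins handle the microRNA itself, had 4 of 24 higher (16.7%) and 2 lower (8.33%). The shares among all genes were 8.04% and 6.11%. Only 1 was higher without input replicate 1, pull-down replicate 2 or pull-down replicate 3. LIN28B, which blocks maturation of let-7, rose by 0.83 ± 0.19, equal to its 0.82 with miR-3118-3p. The helicases DDX5 (0.76 ± 0.22) and DDX17 (-0.48 ± 0.12), which act with the nuclear microRNA processor, were called in opposite directions, and both calls were lost without input replicate 2; the DDX5 call was also lost without any other 1 of the 6 arrays. GEMIN5 fell by 0.42 on the log2 scale, a call lost without pull-down replicate 1 or 3 or input replicate 1 or 3.

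For the remaining lists the count with the range over the 12 leave-outs is given, since a single array moved most of them by over 1.5 times. Percents are of the measured members, and the shares among all genes were 8.04% higher and 6.11% lower. RNA polymerase II, Mediator and elongation genes had 7 of 75 higher (9.33%, 6 to 11) and 10 lower (13.3%, 5 to 18), with 19 lower under the replicate block. MED8 (1.23 ± 0.22) and TAF12 (1.05 ± 0.17) led the rises, MED30 (-0.82 ± 0.12) and GTF2H5 (-0.74 ± 0.15) the falls. Mitochondrial import and CHCHD genes had 3 of 43 higher (6.98%, 2 to 3) and 6 lower (14.0%, 0 to 12), with 11 lower under the replicate block. DNA replication genes had 7 of 51 higher (13.7%, 4 to 8) and 5 lower (9.80%, 2 to 9), with 8 lower under the replicate block. RFC1, the large clamp loader subunit, rose by 1.27 ± 0.18 and TIPIN, of the fork protection complex, fell by 0.92 on the log2 scale. RFC2 fell by 0.89 at its brightest probe, while its other probe gave 0.08. Karyopherins and RNA export genes had 7 of 40 higher (17.5%, 4 to 9) and 1 lower (2.5%, 1 to 2), with 3 lower under the replicate block. Among them SARNP read 1.03 ± 0.17. RNA decay genes had 7 of 55 higher (12.7%, 5 to 7) and 3 lower (5.45%, 2 to 5), with 5 lower under the replicate block. LSM14A, a P-body protein, read 0.94 ± 0.18 and the exosome subunit EXOSC1 -0.66 ± 0.15. Endoplasmic reticulum genes had 6 of 54 higher (11.1%, 5 to 7) and 5 lower (9.26%, 0 to 7), led by TRAM1, a translocon-associated protein (1.42 ± 0.15). SPCS3, of signal peptidase, rose by 1.18 at its brightest probe and read 0.42 at the other.

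Autophagy genes had 2 of 36 higher (5.56%, 1 to 4) and 3 lower (8.33%, 1 to 3), with 6 higher under the replicate block. ATG3, the conjugating enzyme for LC3, rose by 1.53 ± 0.12 with 0.89 at its further probe, and MAP1LC3B, LC3 itself, fell by 0.74 on the log2 scale. Cholesterol and isoprenoid genes had 1 of 22 higher (4.55%, 1 to 1) and 3 lower (13.6%, 1 to 4), with 2 higher under the replicate block. FDPS, farnesyl diphosphate synthase, read 1.25 ± 0.14 and SC5D, a sterol desaturase, -0.76 ± 0.16. Nuclear pore genes had 1 of 28 higher (3.57%, 0 to 2) and 1 lower (3.57%, 1 to 3), and 4 higher and 2 lower under the replicate block. NUP35 fell by 0.81 on the log2 scale. Elongation factors and aminoacyl-tRNA synthetases had 1 of 26 higher (3.85%, 0 to 1) and 2 lower (7.69%, 0 to 2), with 2 higher under the replicate block. Most shifts downward came on leaving out pull-down replicate 2 or 3 or any of the 3 inputs, and most shifts upward on leaving out the first miR-3118-3p pull-down array.

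Of 17 genes listed as markers of the embryonic kidney line 8 had a row in the deposited table. VIM (vimentin), the brightest of them, read 11.53, 11.50 and 11.28 in the pull-downs and 12.28, 12.22 and 11.97 in the inputs (-0.72 ± 0.17, a call lost without pull-down replicate 3), and KRT18, a keratin, fell by 0.66 on the log2 scale. NEFM, a neurofilament, rose by 0.57 ± 0.14. The other 5 did not pass: CDH2 (0.37), EMX2 (0.11), GATA3 (-0.06), KRT8 (-0.11) and NEFL (-0.17). Thus 1 of the 8 was higher (12.5%) and 2 were lower (25%), against 8.04% and 6.11% of all genes. CDH2 was called higher in 4 of the 22 alternative settings. Of blood, neuron and glia, hepatocyte, and fibroblast and endothelial markers only 1, 4, 1 and 1 had a row in that table, and none passed; TUBB3, a neuronal tubulin, read -0.62 ± 0.21 (adjusted p = 0.054, and 0.0076 with the replicate block). Whether a marker is above background cannot be read from these values.

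The 15 largest falls ran from -0.93 to -1.35. All 15 kept their call under all 22 alternative settings. GNG10, a G protein gamma subunit, read 8.03, 8.36 and 8.07 in the pull-downs and 9.39, 9.52 and 9.60 in the inputs (-1.35 ± 0.19; adjusted p = 2.0e-04). SNHG17, a host gene of small nucleolar RNA, gave 6.74, 6.84 and 6.79 against 7.97, 7.77 and 8.04 (-1.14 ± 0.17). BPHL, a serine hydrolase, gave 6.58, 6.60 and 6.33 against 7.58, 7.56 and 7.58 (-1.07 ± 0.13). RPS7, a protein of the small ribosomal subunit, fell by 1.13, the small noncoding RNA SNAR-A1 by 1.06, the pseudogene PTTG3P by 0.99, the histone gene H2AC25 by 0.97 and the small nucleolar RNA SNORD36A by 0.96 on the log2 scale. Each of these 5 has close copies or sits in a host gene, so its probe may also read other transcripts. The others were HSPA6, RBM4 and MIX23, given above, TPRKB of the KEOPS complex (-0.95 ± 0.22), the phosphatase ACP1 (-0.95 ± 0.20), MRPL39 of the mitochondrial ribosome (-0.93 ± 0.21) and FABP5, a fatty acid-binding protein (-0.93 ± 0.15).

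Rises and falls differed in how far they were shared with miR-3118-3p. Of the 770 genes higher with miR-4307-3p, 157 were also higher with miR-3118-3p, which is 20.4% of the 770 and 12.9% of the 1216 (12.7% of all genes) that were higher with miR-3118-3p. Of the 585 lower genes, 308 were also lower with miR-3118-3p, 52.6% of the 585 and 29.6% of the 1042 (10.9% of all genes). By the test of the difference itself, enrichment was greater with miR-4307-3p for 453 genes (4.73%) and less for 274 (2.86%). Of the 770, 374 passed this test upward (48.6%), and of the 211 that rose by at least 1, 181 did (85.8%). Of the 585, 45 passed it downward (7.69%). Among the 30 largest rises 29 passed it, the exception being ACACA, and the values of the 30 with miR-3118-3p had a median of -0.13 and lay below 0 for 20. Among the 15 largest falls 3 passed it, SNHG17 (adjusted p = 0.044), BPHL (0.012) and MIX23 (0.0012), and 14 were below 0 with miR-3118-3p as well. The SNHG17 call was lost without any 1 of the 6 miR-4307-3p arrays or any miR-3118-3p input (adjusted p = 0.054 to 0.12), and MRPL39 (-0.90) passed with the replicate block (adjusted p = 0.018). Without the first miR-3118-3p pull-down array GNG10, TPRKB and MRPL39 passed too. All these groups of genes were chosen by their difference with miR-4307-3p, which is also a term of the test of the difference. The shares that passed are therefore partly set by the choice. Falls were also smaller than rises, with medians of -0.56 over the lower genes and 0.74 over the higher genes. The count of less enriched genes was 178, 182, 175 and 168 without, in turn, input replicate 2, pull-down replicate 3 and input replicate 3 of miR-4307-3p and input replicate 2 of miR-3118-3p. It was 754 without the first miR-3118-3p pull-down array and 550 with the replicate block.

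**Figure D5:**
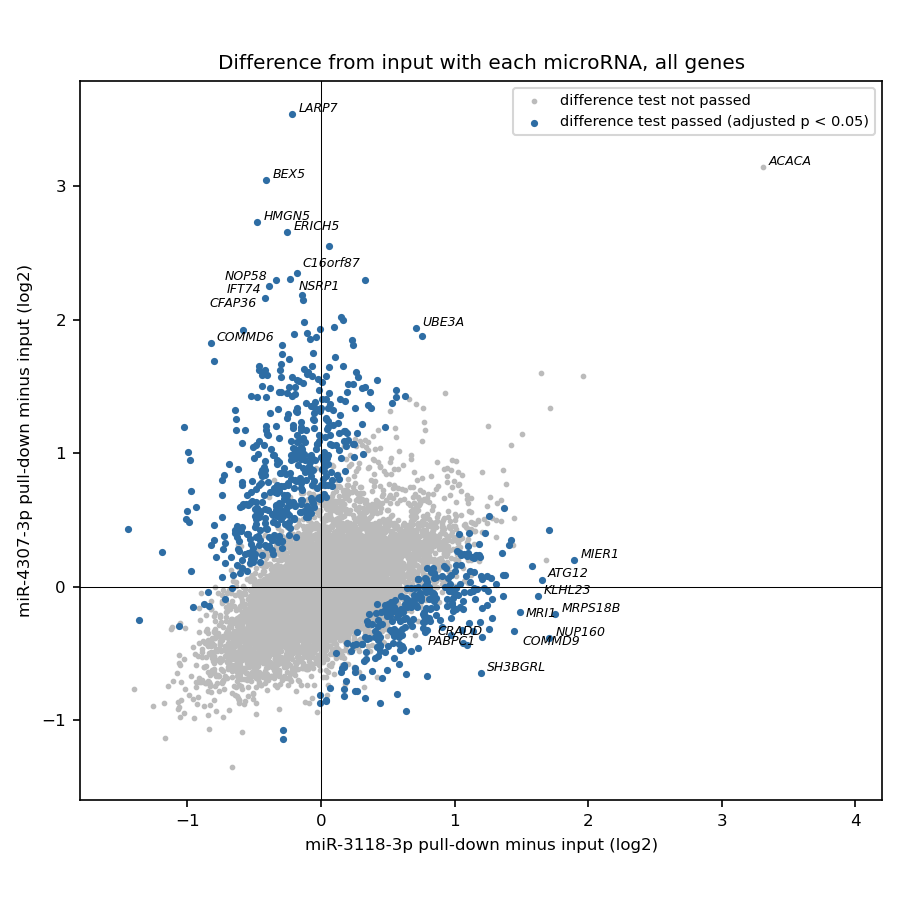
Pull-down minus input (log2) with miR-4307-3p (vertical axis) against miR-3118-3p (horizontal axis) for the 9581 genes, each the mean of 3 arrays minus the mean of 3. Blue points passed the test of the difference; LARP7, BEX5 and HMGN5 lie high near the vertical axis, ACACA lies near the diagonal at 3.14 and 3.31, and NUP160 and MRPS18B lie far to the right.

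The genes that differed most between the microRNAs in the upward direction were mostly those already named, from LARP7 to C16orf87 at 2.53. COMMD6 was lower than its input with miR-3118-3p, at -0.83, which made its difference 2.65 ± 0.20 against a rise of 1.82. In the other direction the leading genes had not passed the test with miR-4307-3p. NUP160, a scaffold protein of the nuclear pore, read 8.89, 9.30 and 9.37 in the miR-4307-3p pull-downs and 9.69, 9.46 and 9.55 in the inputs, against a rise of 1.71 with miR-3118-3p. The difference was -2.09 ± 0.23 (adjusted p = 4.6e-05). PABPC1, the cytoplasmic poly(A)-binding protein, gave 11.19, 10.93 and 10.83 against 11.48, 11.20 and 11.39 with miR-4307-3p, and rose by 1.21 with miR-3118-3p. Its difference from input with miR-4307-3p had an adjusted p of 0.065, and 0.040 with the replicate block.

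At the threshold itself, just inside on the upper side were CD99L2 (0.41), POLR3D (0.48) and U2AF1 (0.49), and just outside were EPHB4 (0.40), SLC35B4 (0.46) and CEBPZ (0.60). On the lower side RNF146 (-0.45), COX7C (-0.40) and GRN (-0.64) were just inside, and LAMTOR5 (-0.36), CD164 (-0.54) and PTGES3 (-0.54) just outside. With the replicate block all of those outside but LAMTOR5 passed. Where a gene had several probes, they mostly went the same way. This was so for 181 of 199 higher genes, for 196 of 210 lower genes and for 60 of 62 that rose by at least 1.

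Among 2671 probes lacking a gene name, 203 were called higher (7.6%) and 335 lower (12.5%). Named genes gave 8.04% and 6.11%, but these shares are not like for like. Each named gene counts once, at its brightest probe, and the p-value adjustment over 9581 genes left the unnamed probes out. Whether unnamed probes fell more often than named genes was not tested. A rise of at least 1 was found for 78 of the 2671 probes. The strongest read 13.01, 13.16 and 13.12 in the pull-downs and 8.93, 9.13 and 9.41 in the inputs, a difference of 3.94 ± 0.28, larger than that of any named gene. The next gave 12.99, 13.00 and 13.01 against 9.35, 9.54 and 9.72, a difference of 3.47 ± 0.20. The largest fall among these probes went to 6.86, 7.98 and 7.18 from 8.69, 9.49 and 8.53. It was -1.57 ± 0.42, beyond the -1.35 of the largest fall of a named gene.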

How the data were processed

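Of 12 arrays, 6 were compared here. Groups and replicate numbers came from the titles. Values are the authors' deposited log2 values, from lumi 2.2.1 according to the submitters' processing notes. How they were transformed, normalized and filtered is not given in the sources used, and they carry no measure of detection. A further table, not normalized, was left aside because none of its 12 columns is named for a sample. The platform annotation gave 1 symbol to 12354 of 15025 probes, several to 2 and none to 2669; gene identifiers named 12352, and 2 symbols were updated. The brightest probe stood for a gene, leaving 9581 genes, 2331 with several probes.

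limma 3.58.1 in R 4.3.3 was fitted over 12 arrays and 4 group means with no block (8 residual degrees of freedom), with two-sided p-values and Benjamini-Hochberg adjustment across all 9581 genes. Pull-down and input arrays of 1 number deviated together from their group means, with correlations of 0.204, 0.342 and 0.286 for miR-4307-3p. The numbers were therefore taken to pair the samples. The fit with a replicate block gave 1065 genes higher and 922 lower, and is reported for the totals and for some lists and genes only. Where it is not given, a list count may still have moved by over 1.5 times. The main counts, SE and adjusted p-values come from the fit without the block and leave this pairing out. Tested on simulated data with 200 genes changed, the fit called 28.4%, 86.6% and 100% of genes changed by 0.5, 1 and 2 for this comparison of 9581 genes, and 7 unchanged genes. The 1355 genes called on the real arrays far exceed these 200. Whether the rates hold for the real arrays, with their pairing and unequal spread between groups, was not tested. The number of arrays limits the precision.

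The members, the 39 gene lists and the rule for named genes were chosen with earlier results of these data known. The rule names the 30 largest rises and 15 largest falls among called genes whose groups do not overlap, the 10 largest differences between the microRNAs each way, the 2 largest rises and falls called in each list, every member of lists with at most 20 measured, ACTB and GAPDH, and 3 genes on each side of each threshold. Transcripts of X inactivation and of the Y chromosome are not named. Sequences of microRNAs are from RefSeq. Seed sites in messages and the make-up of the encoded proteins had been planned and were not analysed here, for want of transcript and protein sequences. Alternatives were the block, the 6 arrays alone, an intensity trend, array weights, 3 further normalizations, leaving out dim genes, averaging probes and leaving out each array.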

Additional observations from a re-analysis of the deposited data

Results flagged for a closer look

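For 20 genes the difference from input with miR-4307-3p was not the same as with miR-3118-3p by the test of the difference itself, and these are the 10 largest each way among genes that passed at least 1 of the enrichments; adjusted p-values are limma's over all 9581 genes.

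Enrichment was greater with miR-4307-3p for LARP7, by 3.76 ± 0.22 (SE), for BEX5 by 3.46, for HMGN5 by 3.21 and for ERICH5 by 2.91. The next were COMMD6 by 2.65, IFT74 by 2.63, NOP58 by 2.63, CFAP36 by 2.58, NSRP1 by 2.53 and C16orf87 by 2.53. The highest adjusted p of these 10 was that of C16orf87, 6.4e-05. In all 10 the rise with miR-4307-3p was called, and with miR-3118-3p only COMMD6 (-0.83) and CFAP36 (-0.42) passed, both lower than input.

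Enrichment was less with miR-4307-3p for NUP160, by -2.09 ± 0.23, for MRPS18B, a mitochondrial ribosomal protein, by -1.96, for SH3BGRL by -1.84 and for COMMD9 by -1.78. The next were KLHL23 by -1.69, MIER1 by -1.69, MRI1 by -1.68, ATG12 by -1.60, PABPC1 by -1.58 and CRADD by -1.57. The highest adjusted p of these was that of ATG12, 0.0041. None of the 10 passed with miR-4307-3p itself, although SH3BGRL (adjusted p = 0.021) and PABPC1 (0.040), both lower, did with the replicate block, and all 10 were higher with miR-3118-3p.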

How the results depend on the processing

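The counts of higher and lower genes were 1698 and 1719 with the 6 miR-4307-3p arrays alone and a replicate block (2 residual degrees of freedom), 1266 and 1183 with these arrays alone and no block, and 1593 and 1619 with array weights. With the replicate block within each microRNA 922 were lower, and with cyclic loess 378. The count of less enriched genes was 550 with that block and 660 with array weights. With 1 array left out, higher genes ranged from 519 to 1051, lower from 234 to 964, more enriched from 355 to 592 and less enriched from 168 to 754. The cause of these shifts was not tested. Of 150 named genes called with miR-4307-3p, 102 kept their call in all 22 alternatives, 48 lost it in at least 1 and 0 reversed; the block ended none of the 1355 calls. Quantile normalization, median scaling, an intensity trend, averaged probes and leaving out dim genes kept all 4 counts within 1.5 times. Background correction with neqc was not run, since its table's columns match no sample label, and neither were the alternatives on protein make-up and seed sites.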
